A study of Mus musculus with 6 samples.

Results

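The miR-183 cluster is a group of 3 microRNA (miRNA) genes, Mir183, Mir96 and Mir182, that lie side by side in the genome and are read from a shared primary transcript. Its 4 members here are the mature miRNAs mmu-miR-183-5p, mmu-miR-183-3p, mmu-miR-96-5p and mmu-miR-182-5p (mmu- stands for mouse and is left out below). They were found by their full mature names among 1899 entries, and 4 of 4 were present. All 4 passed the minimum mean count of 50 over the libraries, as did 351 entries in all. None of them is part of a merged entry, and no read of theirs was ambiguous with another entry in any of the 6 libraries. The other arms of 2 hairpins, miR-96-3p and miR-182-3p, are also listed in the files and did not pass the minimum. They are described where their reads allow.

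Mature miRNAs were counted by sequencing the small RNA of mouse embryonic stem cells of strain 129/Ola, with 1 library for each of 6 groups. The groups were untreated wild-type (WT) cells, untreated Wt1 knockout (KO) cells, Wt1 KO cells carrying an inducible Wt1 at 12 h and at 24 h of doxycycline (dox, 1 µg/ml), WT cells with retinoic acid (RA) and Wt1 KO cells with RA. Wt1 encodes a zinc finger transcription factor of the developing kidney and gonad, dox switches the inducible gene on, and RA, a vitamin A derivative, drives stem cells out of the stem cell state. The RA dose is written 1 µm in the labels and read here as 1 µM. All cells grew in serum with leukemia inhibitory factor on gelatin-coated dishes. The RA-treated libraries are called RA-treated WT and RA-treated KO below. The labels do not give the duration of RA, the number of KO clones or the clone that carries the inducible gene, so the dox libraries may differ from the untreated KO library by line as well as by treatment. No dox-treated library without the inducible gene is used here, and the Wt1 mRNA is not part of a small RNA library, so knockout and induction were not checked.

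Total counts of reads matched to 1 entry ran from 83626 in RA-treated KO to 6106104 in RA-treated WT, a 73.0-fold range. The other 4 libraries held 1063945 to 3629658. The Wt1 KO library with RA stands apart by its depth: 3 counts there equal 27.8 normalised CPM (reads after scaling to a common depth), against 0.448 to 2.75 elsewhere, and the median count of the analysed entries was 16, against 132 to 876. No difference has a replicate check or a test, with 1 library per group, and every comparison is between libraries. Brackets give 95% intervals of counting error only, since 1 library per group gives no estimate of the spread. PCR-amplified reads without molecular identifiers are not independent molecules, so the intervals may be too narrow even for counting error. An entry counts as higher or lower under a size rule, a log2 ratio of 1 or more or of -1 or less whose interval excludes 0. The 6 listed miR-290 cluster arms, markers of stem cells, had reads in all 6 libraries. All entries of the neuron list had reads throughout too, so presence alone does not check the label. The miR-290 cluster arms summed to 105783 normalised CPM in untreated WT and 136254 in untreated KO, and to 5529 and 54933 in RA-treated WT and KO.

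A miRNA guides the silencing complex to messenger RNAs that pair with its seed, bases 2 to 8 from the 5′ end. The miR-183 cluster is best known from sensory cells such as the hair cells of the inner ear and photoreceptors, and base changes in the seed of miR-96 cause progressive hearing loss in mice and people. It is also expressed in embryonic stem cells and epithelial cells, and the transcriptional repressor ZEB1 has been reported to lower it together with the miR-200 family.

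The mature sequences show how alike the 3 main arms are. They are printed 5′ to 3′ as RNA, where the files write T for U, with the seed in capitals, and all 6 arms equal a mature sequence in RefSeq (GRCm38.p6), where 1609 of the 1899 entries found an equal.
miR-183-5p: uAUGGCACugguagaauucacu
miR-96-5p: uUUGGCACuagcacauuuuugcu
miR-182-5p: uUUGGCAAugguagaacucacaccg
miR-183-3p: gUGAAUUAccgaagggccauaa
miR-96-3p: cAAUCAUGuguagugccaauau
miR-182-3p: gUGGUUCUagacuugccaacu

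Counting from 1 at the 5′ end, with the base of the first-named miRNA first, the seeds of miR-183-5p and miR-96-5p differ only by A2U. Those of miR-96-5p and miR-182-5p differ only by C8A, and those of miR-183-5p and miR-182-5p by A2U and C8A. Over the whole length, seed included, the likeness has another order. miR-183-5p and miR-182-5p are equal at 18 of 22 bases, while miR-96-5p equals miR-183-5p at 13 of 22 and miR-182-5p at 12 of 23. No other entry in the files has the seed of miR-183-5p, miR-96-5p or miR-182-5p, or that seed shifted by 1 base. The seed of miR-183-3p, shifted by 1 base, is shared by miR-3068-3p, which had 5, 6, 5, 29, 83 and 0 reads in untreated WT, untreated KO, dox 12 h, dox 24 h, RA-treated WT and RA-treated KO. The seed of miR-96-3p is also that of miR-3475-5p, listed at 0 reads in every library, and that of miR-182-3p, shifted by 1 base, that of miR-203-5p, with 11 reads or fewer.

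The deposited files name no genome build. In RefSeq's GRCm38.p6 annotation the 3 hairpins lie on the minus strand of chromosome 6, Mir183 at chr6:30169668-30169737, Mir96 at chr6:30169446-30169551 and Mir182 at chr6:30165918-30165992. Mir183 and Mir96 are 116 bases apart, and Mir182 follows 3453 bases further on, so that the 3 span 3820 bases. All 3 lie inside the non-coding host gene Mirc35hg, which has no protein. The hairpins are printed 5′ to 3′ with both mature arms in capitals, to show which pieces of each were counted.
Mir183: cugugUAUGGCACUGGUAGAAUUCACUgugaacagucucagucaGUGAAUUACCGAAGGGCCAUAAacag
Mir96: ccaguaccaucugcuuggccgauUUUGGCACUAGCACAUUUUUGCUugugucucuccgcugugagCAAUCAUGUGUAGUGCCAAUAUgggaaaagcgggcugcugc
Mir182: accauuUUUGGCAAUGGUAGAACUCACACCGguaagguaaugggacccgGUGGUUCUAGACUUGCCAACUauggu

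mmu-miR-182-5p was by far the most abundant member in every library, followed by miR-183-5p, miR-183-3p and miR-96-5p in the same order. miR-182-5p had 47289 reads in untreated WT, 63716 in untreated KO, 53093 and 229243 after 12 and 24 h of dox, 287323 in RA-treated WT and 1601 in RA-treated KO. This was 4.44%, 3.60%, 4.33%, 6.32%, 4.71% and 1.91% of all reads in the same order. It ranked 5th, 5th, 4th, 4th, 5th and 8th among the entries of its library.

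After scaling, the level of miR-182-5p was 43408 normalised CPM in untreated WT, 45155 in untreated KO, 46907 and 67384 after 12 and 24 h of dox, 42919 in RA-treated WT and 14819 in RA-treated KO. The highest library, dox 24 h, stood 4.55-fold above the lowest, RA-treated KO. The 4 libraries in between lay close together, and the intervals of untreated WT and RA-treated WT overlapped.

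mmu-miR-183-5p, next in abundance, had 12538, 15352, 9704, 36857, 53874 and 303 reads in the same order of libraries. Its level was 11509 normalised CPM in untreated WT, 10880 in untreated KO, 8573 and 10834 after 12 and 24 h of dox, 8047 in RA-treated WT and 2805 in RA-treated KO. Untreated KO and dox 24 h did not differ beyond counting error, and RA-treated KO was again the lowest, 4.10-fold below untreated WT.

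mmu-miR-183-3p, the opposite arm of the same hairpin, had 591, 677, 589, 1449, 2678 and 16 reads. Its level was 542, 480, 520, 426, 400 and 148 normalised CPM, and each pair of neighbours in the order of levels had overlapping intervals except RA-treated WT and RA-treated KO.

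mmu-miR-96-5p, the member known from inherited hearing loss, was the scarcest, with 146, 256, 87, 209, 551 and 2 reads. Its level was 134 normalised CPM [113 to 158] in untreated WT, 181 [160 to 205] in untreated KO, 76.9 [61.6 to 94.8] and 61.4 [53.4 to 70.4] after 12 and 24 h of dox, 82.3 [75.6 to 89.5] in RA-treated WT and 18.5 [2.24 to 66.9] in RA-treated KO. The untreated libraries were the highest and lay apart from the rest. RA-treated WT lay above dox 24 h, the interval of dox 12 h overlapped with both, and the 2 reads of RA-treated KO left its place uncertain.

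The passenger arms were near the floor. miR-96-3p had 4, 3, 1, 6, 14 and 0 reads, where the interval of 0 reads in RA-treated KO reaches 34.1 normalised CPM. miR-182-3p had 20, 31, 48, 72, 102 and 1 reads, with its highest level, 42.4 normalised CPM [31.3 to 56.2], after 12 h of dox. These arms carry no comparison of level beyond what their few reads allow.

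**Figure D1:**
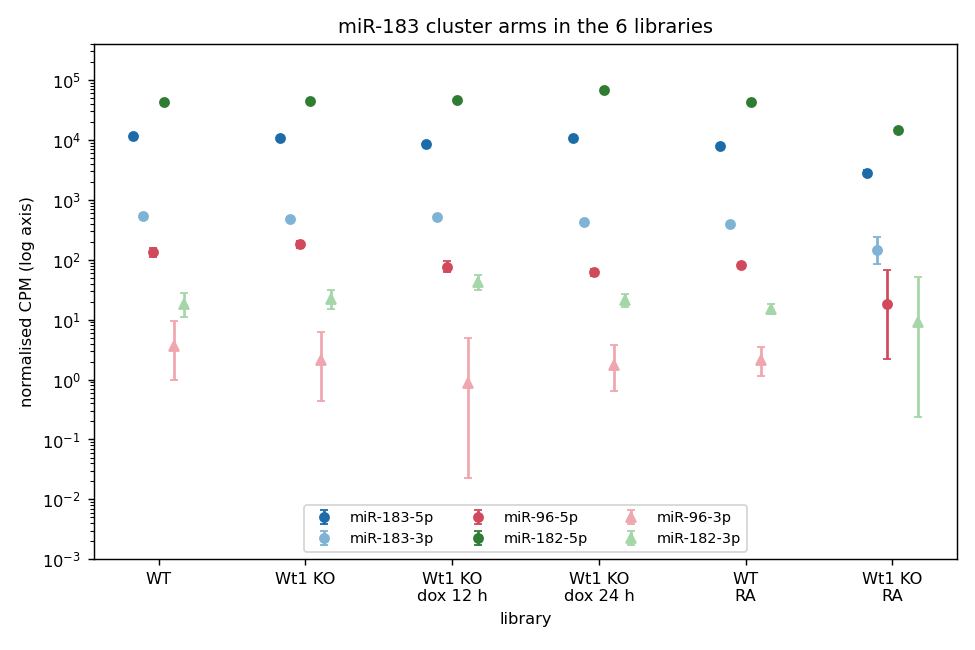
Level of the 4 members (circles) and of the other arms miR-96-3p and miR-182-3p (triangles) in each of the 6 libraries, in normalised CPM on a log axis; bars are 95% Poisson intervals of counting error, and the 0 reads of miR-96-3p in RA-treated KO are not drawn. The order miR-182-5p, miR-183-5p, miR-183-3p, miR-96-5p is the same in every library, and the 4 members have their lowest levels in RA-treated KO.

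Summed over its 4 members the cluster held 5.69% of all reads in untreated WT, 4.52% in untreated KO, 5.17% and 7.38% after 12 and 24 h of dox, 5.64% in RA-treated WT and 2.30% [2.20 to 2.40] in RA-treated KO. In normalised CPM this was 55593, 56696, 56077, 78705, 51449 and 17790. In both units dox 24 h was the highest and RA-treated KO the lowest. In normalised CPM the intervals of untreated KO and dox 12 h overlapped, as did those of dox 12 h and untreated WT. Without RA-treated KO, the highest and the lowest of the other 5 libraries lay 0.61 apart on the log2 scale for the summed cluster, and 8.55% of the 351 entries had a narrower range. The median entry ranged over 1.55. miR-183-3p, miR-183-5p and miR-182-5p ranged over 0.44, 0.52 and 0.65, with 4.27%, 5.41% and 9.40% of entries narrower, and miR-96-5p over 1.56, with 50.7% narrower. With all 6 libraries the summed cluster ranged over 2.15, against a median entry of 2.05. Counting error adds to the range of scarce entries and little to that of the main arms.

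The shares of the members within the cluster do not depend on the scaling between libraries, so they are the measure least touched by it. miR-182-5p made up 78.1% of the cluster's reads in untreated WT, 79.6% in untreated KO, 83.6% and 85.6% after 12 and 24 h of dox, and 83.4% and 83.3% in RA-treated WT and KO. miR-183-5p made up 20.7%, 19.2%, 15.3%, 13.8%, 15.6% and 15.8%. The cluster thus held relatively more miR-182-5p and less miR-183-5p in the 4 treated libraries than in the 2 untreated ones.

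There were 3.77 reads of miR-182-5p per read of miR-183-5p in untreated WT [3.70 to 3.85], 4.15 in untreated KO [4.08 to 4.22], 5.47 and 6.22 after 12 and 24 h of dox, 5.33 in RA-treated WT and 5.28 [4.67 to 5.99] in RA-treated KO. On the log2 scale this ratio was 0.50 [0.47 to 0.53] higher in RA-treated WT than in untreated WT and 0.35 [0.17 to 0.53] higher in RA-treated KO than in untreated KO. After 24 h of dox it was 0.58 [0.55 to 0.61] higher than in untreated KO. Between the 2 RA libraries the difference was -0.02 [-0.19 to 0.16].

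miR-96-5p per miR-182-5p was lower in the treated libraries than in the untreated ones, beyond counting error except in RA-treated KO. miR-182-5p enters this ratio and the one above, so they are not independent. Between the untreated libraries both were higher in KO, by 0.14 [0.10 to 0.18] and 0.38 [0.08 to 0.67] on the log2 scale. Per 1000 reads of miR-182-5p there were 3.09 of miR-96-5p in untreated WT, 4.02 in untreated KO, 1.64 and 0.912 after 12 and 24 h of dox, 1.92 in RA-treated WT and 1.25 [0.151 to 4.52] in RA-treated KO. Against untreated KO this ratio was lower by a log2 difference of -1.29 [-1.64 to -0.94] after 12 h and -2.14 [-2.40 to -1.88] after 24 h of dox, and between 24 h and 12 h it differed by -0.85 [-1.21 to -0.49]. In RA-treated WT it was at -0.69 [-0.95 to -0.43] against untreated WT. Against miR-183-5p in place of miR-182-5p, miR-96-5p had -0.89 [-1.24 to -0.54] and -1.56 [-1.82 to -1.29] at 12 and 24 h of dox, and -0.19 [-0.46 to 0.07] with RA in WT.

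Over the 6 libraries the arms of the Mir183 hairpin kept nearer to each other than miR-96-5p did to miR-182-5p. Per 1000 reads of miR-183-5p there were 47.1, 44.1, 60.7, 39.3, 49.7 and 52.8 of miR-183-3p, of which dox 12 h was the highest and lay 0.46 [0.30 to 0.62] above untreated KO on the log2 scale. Dox 24 h lay below it by a log2 difference of -0.63 [-0.77 to -0.49]. For the Mir182 hairpin, miR-182-3p per 1000 reads of miR-182-5p was 0.423, 0.487, 0.904, 0.314, 0.355 and 0.625. Dox 12 h was again the highest, 0.89 [0.24 to 1.53] above untreated KO, from 48 reads against 31.

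**Figure D2:**
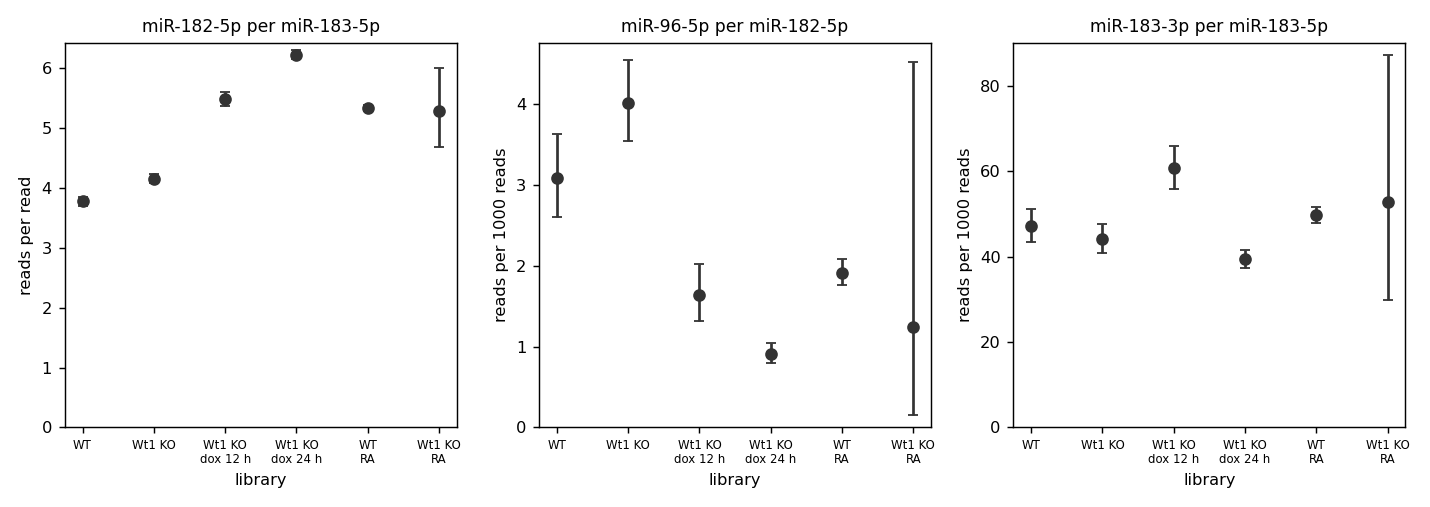
Ratios of reads within each of the 6 libraries: miR-182-5p per read of miR-183-5p (left), miR-96-5p per 1000 reads of miR-182-5p (middle) and miR-183-3p per 1000 reads of miR-183-5p (right), on linear axes from 0; bars are 95% intervals of counting error. miR-182-5p per miR-183-5p is lowest in the 2 untreated libraries (3.77 and 4.15), miR-96-5p per miR-182-5p is lowest after 24 h of dox (0.912), and the wide bars of RA-treated KO come from 2 reads of miR-96-5p and 16 of miR-183-3p.

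Setting untreated KO against untreated WT asks whether the cluster differs where Wt1 is missing. None of the 4 members passed the size rule in either direction, where 27.6% of the 351 entries did. The log2 ratios were 0.06 [0.04 to 0.07] for miR-182-5p, -0.08 [-0.12 to -0.05] for miR-183-5p, -0.18 [-0.34 to -0.02] for miR-183-3p and 0.43 [0.14 to 0.74] for miR-96-5p. Their median of -0.01 stands beside 0.11 over all entries. miR-96-5p was at 0.07 [-0.22 to 0.38] as CPM of the total and 0.09 [-0.21 to 0.39] without the stem cell clusters, intervals that include 0. The sign for miR-182-5p and for the summed cluster, at 0.03, is set by the scaling: as CPM of the total they were -0.30 and -0.33, with a shift of -0.36 in the median of all entries. The split over all entries moved with it, from 43 higher and 54 lower to 24 and 78, and to 25 and 76 with the miR-290 and miR-302 clusters left out of the total.

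With RA in WT cells none of the 4 members passed the size rule, where 46.4% of all entries did. miR-182-5p was at -0.02 [-0.03 to -0.0023], or 0.08 as CPM of the total, miR-183-5p at -0.52 [-0.54 to -0.49], miR-183-3p at -0.44 [-0.57 to -0.31] and miR-96-5p at -0.71 [-0.97 to -0.43]. The median was -0.48 over the members and 0.13 over all entries. Other lists differed widely between the same libraries. The 4 listed HOX cluster miRNAs, which mark position along the body axis, summed to 294.7 normalised CPM in untreated WT and 99053 with RA, and the 4 main 3p arms of the miR-290 cluster, the leading miRNAs of mouse stem cells, summed to 97432 and 5001.

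In Wt1 KO cells with RA all 4 members were lower than in untreated KO, where 22.5% of all entries were lower. The log2 ratios were -1.61 [-1.68 to -1.54] for miR-182-5p, -1.95 [-2.12 to -1.79] for miR-183-5p, -1.65 [-2.51 to -0.99] for miR-183-3p and -2.97 [-6.35 to -1.43] for miR-96-5p. miR-96-5p rests on 2 reads in RA-treated KO and miR-183-3p on 16. The share of entries with a lower ratio, which does not depend on scaling, was 16.2%, 10.3%, 15.1% and 1.42% in the same order.

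Scaling ends part of these calls. As CPM of the total, miR-182-5p was at -0.91, miR-183-3p at -0.96 and the summed cluster at -0.98, short of the size rule, while miR-183-5p at -1.26 and miR-96-5p at -2.28 kept it. On that scale 33 of 351 entries were lower and 126 higher, against 79 and 83 by TMM, the trimmed mean of M values, and the median of all entries shifted by 0.70. Without the stem cell clusters in the total, 4 of 4 members and 41 entries were lower and 116 entries higher. This library's depth, and the wide gap between its scaling factor of 1.29 and the 0.798 of untreated KO, move with the comparison, and their part in it was not tested. mmu-miR-6240, whose reads may come from ribosomal RNA and so tell of RNA quality, was higher in RA-treated KO, where 23.6% of all entries were. It had 222 reads against 434 in the deeper untreated library, a log2 ratio of 2.74 [2.50 to 2.98]. Its bearing on the members' ratios was not tested.

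Between the 2 RA libraries all 4 members were lower in Wt1 KO than in WT, where 19.1% of all entries were lower. The ratios were of like size for the main arms, -1.53 [-1.61 to -1.46] for miR-182-5p and -1.52 [-1.69 to -1.36] for miR-183-5p. miR-183-3p was at -1.39 [-2.24 to -0.73] and miR-96-5p at -1.83 [-5.20 to -0.29], from 16 and 2 reads in RA-treated KO. The members' median of -1.53 stands beside 0.03 over all entries.

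This comparison kept its direction and call under each scaling tried for miR-182-5p, miR-183-5p, miR-183-3p and the summed cluster, whose ratio ran from -1.95 to -1.16. It sets the shallowest library, with 83626 reads, against the deepest, with 6106104, a limit that rescaling does not remove. miR-96-5p, at -1.46 without the stem cell clusters in the total, had an interval that reached 0.08. Over all entries the split of 66 higher and 67 lower became 82 and 42 if scaled by the total, 80 and 47 by DESeq2's median of ratios, 93 and 37 with the stem cell clusters left out.

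The RA responses of the genotypes were compared over 4 libraries. By TMM scaling all 4 members had a lower response in Wt1 KO, where 15.1% of all entries did. The difference of the log2 ratios was -1.59 [-1.66 to -1.52] for miR-182-5p, -1.44 [-1.60 to -1.27] for miR-183-5p, -1.21 [-1.93 to -0.50] for miR-183-3p and -2.27 [-4.08 to -0.45] for miR-96-5p. As CPM of the total 0 of 4 members passed the size rule. Their values were -0.99, -0.84, -0.62 and -1.67, the last with an interval that included 0, and the summed cluster was at -0.96. Without the stem cell clusters 0 of 4 passed as well, with the summed cluster at -0.84. By DESeq2's median of ratios 3 of 4 members passed. The split over all entries was 81 higher and 53 lower by TMM, 131 and 18 if scaled by the total, 99 and 38 by DESeq2's median of ratios, 140 and 13 with the stem cell clusters left out. The untreated libraries enter this difference too, and with them the shift in scale between untreated KO and WT given above.

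**Figure D3:**
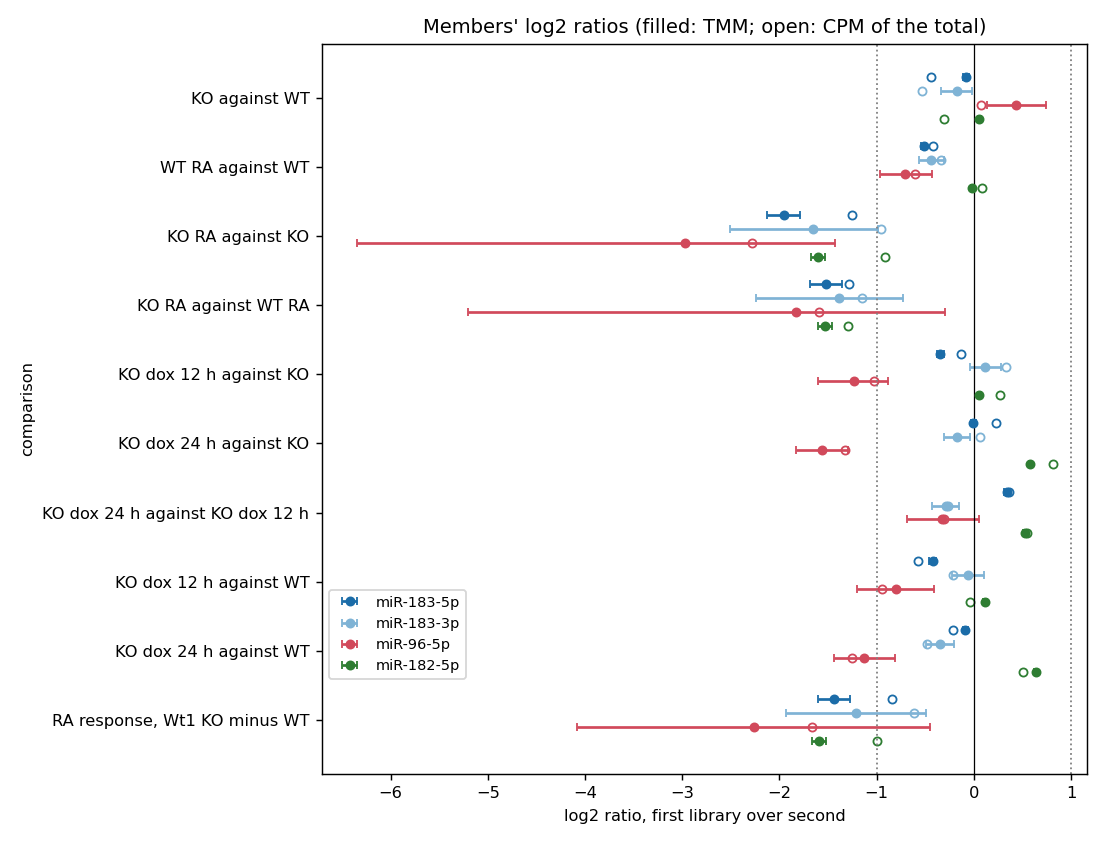
Log2 ratio of the first over the second library for each member and comparison; filled circles with 95% counting intervals are TMM-scaled, open circles are CPM of the total, and dotted lines mark the size rule at -1 and 1. Filled circles of the 4 members lie left of -1 where RA-treated KO is the first library, only miR-96-5p does so in the dox comparisons, and the open circles show how far the scaling moves each value.

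Dox was compared with untreated KO to follow the cluster after Wt1 induction, within the limit that the lines may differ. miR-96-5p was the 1 member called, lower at both times. After 12 h its ratio was -1.23 [-1.61 to -0.88], where 8.55% of all entries were lower, and after 24 h -1.56 [-1.83 to -1.29], where 3.7% were lower. The share of entries with a lower ratio than miR-96-5p was 4.27% at 12 h and 1.14% at 24 h. At 12 h the call is lost without the stem cell clusters in the total (-0.90), while at 24 h the ratio stayed at or below -1.25 under each alternative tried. Both comparisons share the untreated KO library, in which miR-96-5p had its highest level.

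The abundant members did not pass the size rule after dox. miR-182-5p was at 0.05 [0.04 to 0.07] after 12 h and 0.58 [0.56 to 0.59] after 24 h, and miR-183-5p at -0.34 [-0.38 to -0.31] and -0.01 [-0.03 to 0.02]. miR-183-3p was at 0.12 [-0.04 to 0.28] and -0.17 [-0.30 to -0.04]. The signs of miR-183-5p and miR-183-3p at 24 h turn with the scaling, to 0.23 and 0.06 as CPM of the total.

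The splits over all entries turned as well: 15 higher and 30 lower at 12 h became 35 and 13 if scaled by the total, 22 and 23 by DESeq2's median of ratios, 44 and 9 with the stem cell clusters left out. At 24 h, 20 and 13 became 31 and 10 as CPM of the total, and 37 and 6 without the stem cell clusters. mmu-miR-6240 was higher at 12 h, at 1.33 [1.16 to 1.50], where 4.27% of all entries were higher. At 24 h it was at 0.21 [0.05 to 0.37].

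Between 24 h and 12 h of dox none of the 4 members passed the size rule, where 5.41% of all entries did. miR-182-5p was at 0.52 [0.51 to 0.54], miR-183-5p at 0.34 [0.31 to 0.37], miR-183-3p at -0.29 [-0.43 to -0.15] and miR-96-5p at -0.33 [-0.69 to 0.05]. The 2 abundant arms were thus above and the 2 scarcer ones below 0, as they were under each scaling tried.

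Set against untreated WT in place of untreated KO, dox 12 h had no member past the size rule, where 29.6% of all entries were, and miR-96-5p was at -0.80 [-1.20 to -0.41]. The split of 43 higher and 61 lower became 32 and 72 as CPM of the total. After 24 h of dox miR-96-5p was lower than in WT, at -1.13 [-1.44 to -0.81], where 14.8% of all entries were lower. miR-182-5p was at 0.11 [0.09 to 0.13] and 0.63 [0.62 to 0.65], miR-183-5p at -0.42 and -0.09, and miR-183-3p at -0.06 and -0.35.

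The miR-200 family with miR-203 and miR-205, miRNAs of epithelial cells that are often studied beside the miR-183 cluster, had another profile. The 11 listed entries, of which 9 were analysed, summed to 7625 normalised CPM in untreated WT, 2334 in untreated KO, 2041 and 2004 after 12 and 24 h of dox, 11509 in RA-treated WT and 1833 in RA-treated KO. All Wt1 KO libraries were low and both WT libraries high, while the miR-183 cluster was low in RA-treated KO alone. In untreated KO against WT, 7 of the 9 were lower (median -1.75), where 0 of 4 cluster members and 15.4% of all entries were. Between the RA libraries 7 of 9 were lower (median -1.92), beside 4 of 4 in the cluster and 19.1% of all entries. With RA in Wt1 KO 3 of 9 were higher by TMM scaling, where 23.6% of all entries were. Lower were 2 of 9, beside 4 of 4 in the cluster and 22.5% of all entries. The 2 lower, miR-200b-3p and miR-200c-3p, rest on 62 and 4 reads in RA-treated KO. Of the 3 higher, miR-205-5p and miR-429-3p rest on 79 and 27. As CPM of the total 2 of 4 cluster members were lower, and the calls of this list were not recounted on that scale. The difference between the lists was not tested.

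The most abundant member of that list by mean count over the libraries, miR-200b-3p, had 4904, 1483, 857, 959, 5421 and 574 normalised CPM in the usual order. miR-205-5p had 1247, 317, 593, 456, 3923 and 731. Neither had the near-level profile of the miR-183 cluster over the untreated libraries.

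Sensory, retinal and neural miRNAs, the company of the cluster in its best-known tissues, were scarce. The 10 listed entries, of which 4 were analysed, summed to 362, 746, 833, 928, 464 and 657 normalised CPM, far below the 17790 to 78705 of the cluster. The most abundant by mean count was miR-9-5p, a miRNA of neural progenitors, at 172 normalised CPM in untreated WT and 362 in untreated KO. In untreated KO against WT 3 of the 4 were higher by TMM scaling, where 12.3% of all entries were. Of these, miR-9-5p was at 1.07 [0.83 to 1.33]. Scaling by the total shifts ratios in this comparison by -0.36, past the margin of that call. On that scale 6.84% of all entries were higher, and the calls of this list were not recounted. With RA in WT 2 were lower, where 24.2% of all entries were. These 2 rest on few reads. miR-211-5p had 6 in RA-treated WT and 15 in untreated WT, and miR-124-3p had 60 and 25.

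Markers of other cell types differed between the libraries too. The muscle and mesoderm list, with 2 of 5 entries analysed, summed to 329 to 886 normalised CPM in 5 libraries and to 3665 in RA-treated KO. There the muscle miRNAs miR-1a-3p and miR-206-3p were among its 3 entries at 0 reads, and each of the other libraries had 2 entries at 0. Of the sum in RA-treated KO miR-143-3p, a miRNA of smooth muscle and mesenchyme, made up 3443 normalised CPM. The muscle miRNA miR-133a-3p had 222 in RA-treated KO and 423 in RA-treated WT. The fibroblast and mesenchyme list summed to 61108 in untreated WT, 15812 in untreated KO, 30881 and 27503 after dox, 34386 in RA-treated WT and 25315 in RA-treated KO. That sum is mainly miR-22-3p, with 57033 in untreated WT and 22640 in RA-treated KO. The merged entry of miR-199a-3p and miR-199b-3p, miRNAs of mesenchyme, ran another way, with 41.3, 66.6, 80.4, 108, 122 and 963 in the usual order, highest in RA-treated KO. The neuron list ran from 341 to 647 and the endoderm list from 178 to 360. The blood and endothelium list ran from 81.3 in RA-treated WT to 4273 after 12 h of dox, with 278 in RA-treated KO. That sum is mainly miR-150-5p, with 59.5 in RA-treated WT and 4170 after 12 h of dox. In the same libraries miR-126a-3p of this list had 21.4 and 72.4. In each library 2 or 3 of its 6 entries had 0 reads. In bulk libraries fewer cells of a type and less RNA per cell cannot be told apart, and the part of these cell types in the cluster's level was not tested.

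The stem cell clusters did not run parallel to the miR-183 cluster either. The 4 main 3p arms of the miR-290 cluster had 97432, 123486, 174519, 151974, 5001 and 47482 normalised CPM, lowest in RA-treated WT, where the miR-183 cluster was at 51449. The miR-302 cluster, which marks primed pluripotent cells, had 755, 157, 267, 675, 18.4 and 83.3, also lowest in RA-treated WT. Its 83.3 in RA-treated KO comes from 9 reads, with 2 of its 5 listed entries at 0. The 4 HOX miRNAs had 294.7, 298, 262, 485, 99053 and 18410.

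**Figure D4:**
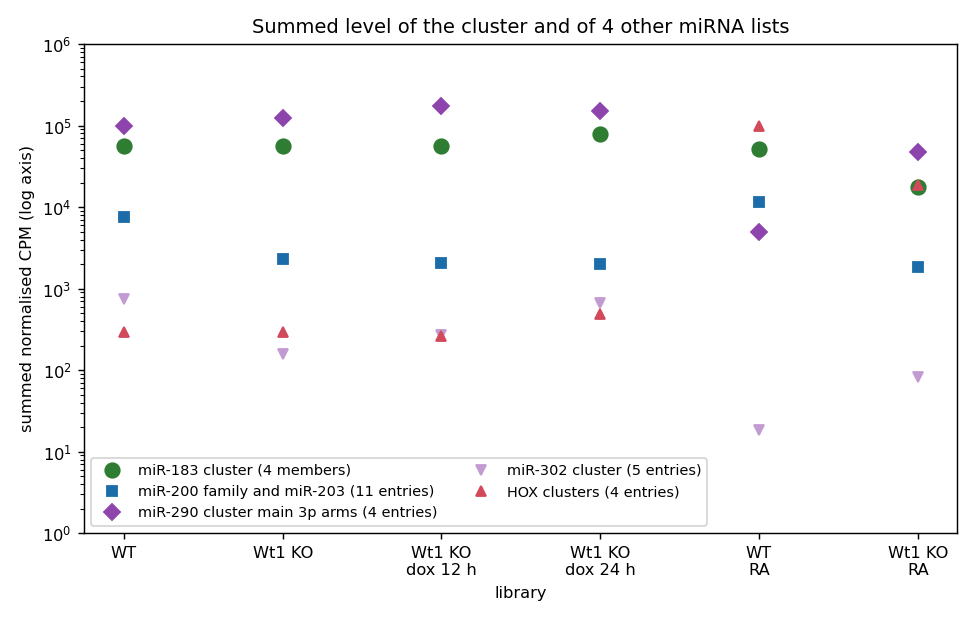
Summed normalised CPM (log axis) of the miR-183 cluster and of 4 other miRNA lists in each of the 6 libraries, without error bars since the sums are shown for scale. The cluster lies between 51449 and 78705 in 5 libraries and at 17790 in RA-treated KO, while the miR-290 arms are lowest in RA-treated WT (5001) and the miR-200 list is low in all 4 Wt1 KO libraries (1833 to 2334).

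Likeness of profile was measured as the root mean square difference of log2 normalised CPM over the 6 libraries, each profile centred on its mean. The 5 entries nearest to the summed cluster were miR-541-5p (0.22), miR-423-5p (0.23), miR-191-5p (0.25), miR-181c-5p (0.31) and miR-1947-5p (0.32), against a median of 0.98 over the 347 other analysed entries. The nearest, miR-541-5p, had 24941, 33120, 31696, 47080 and 35477 normalised CPM in the first 5 libraries and 12828 in RA-treated KO, so it too was highest after 24 h of dox and lowest in RA-treated KO. miR-1947-5p had 3 reads in RA-treated KO. Among the members, miR-183-5p lay at 0.20 from miR-183-3p and 0.25 from miR-182-5p, and miR-96-5p at 0.48 from miR-183-5p and 0.69 from miR-182-5p. For miR-183-5p and miR-183-3p the other arm of the hairpin was the nearest of all entries, while for miR-96-5p, with the 2 reads in RA-treated KO, it was miR-1306-5p at 0.34.

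The members share a host gene, so its promoter in RefSeq (GRCm38.p6, chr6:30174076-30174375, minus strand, 250 bases before to 50 after the annotated start) is shown as the sequence before the shared transcript. The capitals mark an E-box CACCTG, the letters that ZEB1 binds.
Mirc35hg promoter: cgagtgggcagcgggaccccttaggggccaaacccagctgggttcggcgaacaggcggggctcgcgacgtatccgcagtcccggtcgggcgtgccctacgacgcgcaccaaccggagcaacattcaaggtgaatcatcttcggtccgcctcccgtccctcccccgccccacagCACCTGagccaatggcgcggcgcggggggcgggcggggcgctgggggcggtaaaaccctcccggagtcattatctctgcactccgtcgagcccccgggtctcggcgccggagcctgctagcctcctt

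The window has a GC content of 70.3%, against 53.8% over all promoters in the table. CACCTG, searched on both strands, was found 1 time, with its first base at -77 from the start, and 20.2% of 32851 promoter windows of the same length hold it. AGGTCA, the half-site of retinoic acid receptors, was not found (16.3% of windows hold it), nor were 2 sites described for WT1, GCGGGGGCG (2.91%), which EGR1 also binds, and GCGTGGGAG (0.472%). These searches describe letters in this window and say nothing of binding by any factor.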

How the data were processed

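Small RNA of 6 mouse embryonic stem cell libraries was sequenced, 1 library per group, after adapter ligation and excision of the bands of miRNA and of slightly longer inserts, per the labels' protocols. The values are the unique-match counts per mature miRNA that the authors deposited, per the file headers the reads that matched 1 entry. The aligner, the mismatches allowed, the genome build and the miRBase version are each not given in the sources used here. Counts were scaled by TMM (edgeR 4.0.16, R 4.3.3; factors 1.02, 0.798, 0.922, 0.937, 1.10 and 1.29 in the order of groups in the text) over the 351 entries that averaged 50 reads or more per library, unscaled, so that RA-treated WT, the deepest, weighs most in this minimum. Log2 ratios used a prior count of 0.5 per library, with exact conditional binomial (Clopper-Pearson) 95% intervals, levels exact Poisson intervals, and differences of ratios the delta method. The binomial interval is that of the raw ratio, without the prior, while the delta-method intervals include the prior. With 1 library per group no test or p-value is given. The calculation was tested on simulated counts with known scaling and counting error only. That simulation cannot address the choice of scaling, PCR copies or the spread between libraries.

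The members, lists and comparisons were chosen with earlier results of these data known, and the promoter motifs after the values were seen. Named miRNAs are the members, their other arms, entries with a shared seed, of each list up to 4 members, taken by mean count, and the 5 entries with the nearest profile. mmu-miR-6240 and the nearest entry to single members were named after their values were seen. Alternatives were CPM of the total, the median of ratios (DESeq2 1.42.0), CPM with the miR-290 and miR-302 clusters left out, minimum mean counts of 10, 200 or none, prior counts of 0.125 and 2, and multi-match reads added. A prior in proportion to library size and scaling without RA-treated KO were added after the data were seen.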

Additional observations from a re-analysis of the deposited data

Results flagged for a closer look

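The summed cluster was just below untreated KO after 12 h of dox and above it after 24 h, with log2 ratios of -0.02 and 0.47. It is listed because the ratios have opposite signs. The difference was not tested, there is 1 library at each time, and the 12 h value lies so near 0 that its sign turns under 5 of the alternative settings, while the 24 h value stayed between 0.47 and 0.78.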

How the results depend on the processing

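For the members and the summed cluster 535 ratios were recomputed over 11 settings: 492 kept their direction and their side of the size rule, 16 no longer passed it, 0 newly passed it and 27 changed sign, none of them a called ratio. As CPM of the total the summed cluster fell short in RA-treated KO against untreated KO (-0.98) and in the genotype difference of the RA response (-0.96), and in the latter also with the miR-290 and miR-302 clusters left out of the total (-0.84). The cause was not tested. Its sign changed in untreated KO against WT (-0.33 as CPM of the total, -0.32 without the stem cell clusters, -0.029 by the median of ratios, -0.027 without a filter, -0.089 at a minimum of 10), in dox 12 h against untreated KO (0.19, 0.31, 0.056, 0.086 and 0.044 in the same order) and in dox 12 h against WT (-0.14 as CPM of the total, -0.0062 without the stem cell clusters, -0.045 at a minimum of 10, -0.0027 at 200). The sign of miR-182-5p changed in untreated KO against WT (-0.30, -0.29, -0.00058 by the median of ratios, -0.061 at a minimum of 10), and as CPM of the total in RA-treated WT against untreated WT (0.082) and dox 12 h against WT (-0.039). After 24 h of dox that of miR-183-5p changed (0.23, 0.30, 0.076 in the same order, 0.10 at a minimum of 10, 0.10 without a filter), as did that of miR-183-3p (0.060 as CPM of the total and 0.14 without the stem cell clusters). Of 214 counts of called entries, 50 moved by over 1.5 times. The main counts and their ranges, higher then lower, were 43 (21 to 61) and 54 (32 to 83) in untreated KO against WT, 78 (50 to 119) and 85 (52 to 157) with RA in WT, 83 (56 to 126) and 79 (33 to 112) with RA in Wt1 KO, 66 (42 to 93) and 67 (37 to 109) between the RA libraries, 15 (7 to 51) and 30 (9 to 36) at dox 12 h, 20 (11 to 46) and 13 (6 to 31) at dox 24 h, 15 (8 to 23) and 4 (3 to 24) between the times, 43 (24 to 69) and 61 (44 to 81), then 38 (19 to 67) and 52 (33 to 85) for dox 12 h and 24 h against WT, and 81 (53 to 162) and 53 (13 to 83) for the RA responses. Adding multi-match reads left the members' counts as they were. No paired analysis was possible because each group has 1 library. Depth limits RA-treated KO most, where miR-96-5p had 2 reads.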
